A study of Mus musculus with 15 samples.

Results

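The 10 genes described here are a set of interferon gamma-induced genes measured in the mouse submandibular gland. They comprise the immunity-related GTPases Iigp1, Irgm1 and Igtp, the guanylate-binding proteins Gbp2, Gbp3, Gbp5 and Gbp7, the transcription factors Irf1 and Irf8, and the signalling inhibitor Socs1. They were taken by gene name, not by any measured value, from a table of 32479 genes with at least 1 count. All 10 passed the filter on low counts and are among the 18136 genes tested.

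RNA was sequenced from submandibular glands, 5 libraries in each of 3 groups. The SJQYD group is NOD/LTJ mice given SJQYD, a treatment known here only by these letters. The model group is NOD/LTJ mice without treatment, an inbred strain prone to autoimmune sialadenitis. The control group is ICR mice without treatment, from an outbred stock. All mice are labelled as wild type, and the labels used here give no age, dose or duration of treatment. Model and control differ in strain as well as in disease, and these cannot be told apart in the model against control comparison. SJQYD and control differ in strain, disease and treatment, which cannot be told apart in the SJQYD against control comparison. The labels do not say how the mice of a group relate to each other, so p-values measure the spread between these libraries.

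Interferon gamma is made mainly by T cells and natural killer cells and binds a receptor on most cell types. The receptor's Janus kinases pass the signal to the nucleus, where it acts through GAS elements and switches on a first wave of genes that includes Irf1. Irf1 and related factors then bind ISRE elements in the genes of GTPases that guard the cell against microbes living inside it, while Socs1 inhibits the kinases and so limits the signal. In the salivary glands of Sjögren's syndrome, an interferon-induced gene programme is a well-known feature.

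The promoters of these genes are shown because GAS and ISRE elements are how the pathway is known to reach its targets. Sequences are from RefSeq (GRCm38.p6), 250 bases upstream of each RefSeq start site. These start sites do not always match the gene bounds given further below. The stretches shown for Irgm1 and Gbp5 lie inside those bounds, and the stretches for Gbp2 and Gbp3 lie partly inside them. Promoters of 9 of the 10 members were searched, over 12 start sites. Iigp1 was left out of this search, so nothing is said here about its promoter. Both strands were searched for GAS (TTCNNNGAA) and for ISRE (GAAA, any 2 bases, then GAAA). Each line gives the stretch around the motifs, 5′ to 3′ on the gene's strand, with motif bases in capitals. Where the capitals read TTTC, any 2 bases, then TTTC, the ISRE lies on the other strand.
Irgm1: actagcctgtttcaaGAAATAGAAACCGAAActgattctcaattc
Igtp: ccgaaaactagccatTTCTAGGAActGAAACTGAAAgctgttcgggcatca
Gbp2: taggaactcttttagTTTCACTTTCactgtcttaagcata
Gbp3: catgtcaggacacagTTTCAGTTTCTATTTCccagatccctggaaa
Gbp5: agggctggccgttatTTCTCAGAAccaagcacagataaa
Gbp7: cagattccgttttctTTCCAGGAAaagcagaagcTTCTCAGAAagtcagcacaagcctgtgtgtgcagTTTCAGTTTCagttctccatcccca
Irf1: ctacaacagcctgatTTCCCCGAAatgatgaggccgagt
Irf8: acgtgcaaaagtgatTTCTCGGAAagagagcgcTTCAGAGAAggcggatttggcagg
Socs1: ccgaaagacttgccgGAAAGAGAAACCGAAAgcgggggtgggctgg

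These stretches lie at chr11:48871421-48871465 (minus strand) for Irgm1, chr11:58199496-58199546 for Igtp, chr3:142620589-142620628 for Gbp2 and chr3:142559984-142560029 for Gbp3. They lie at chr3:142496867-142496905 for Gbp5, chr3:142530215-142530307 for Gbp7, chr11:53769909-53769947 for Irf1, chr8:120736172-120736228 for Irf8 and chr16:10785589-10785634 (minus strand) for Socs1. A GAS was found in 5 of the 9 members and an ISRE in 7, and each of the 9 held at least 1 of them. Over 27025 genes with a promoter in the same table, 8.13% held a GAS, 3.46% an ISRE and 11.1% either. Irf1 and Irf8 held GAS and no ISRE, Irgm1, Gbp2, Gbp3 and Socs1 held ISRE and no GAS, and Igtp, Gbp5 and Gbp7 held both. In Irgm1, Gbp3 and Socs1 the 2 ISRE matches overlap. In Igtp the GAS begins 45 bases and the ISRE 34 bases upstream of the start site. In Gbp5 a further GAS and the ISRE begin 245 and 165 bases upstream and are not shown. The second start sites of Gbp3, Irf1 and Irf8 held neither motif. A match describes letters only, and no binding was measured.

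The SJQYD libraries held 39510018 to 62335235 counts each, the model libraries 52746925 to 68694263, and the control libraries 54836440 to 63101584. Each member had between 17 and 2560 counts in a library. Levels are given as CPM, normalised read counts scaled to the TMM-adjusted library size. Markers of submandibular acini and ducts were present in all 15 libraries. A few libraries stood apart. Parotid transcripts took 6.50% of the counts of SJQYD 1, 15.99% of model 3 and 4.17% of control 2. SJQYD 1 also had the largest TMM factor, 1.85, against 0.910 for the lowest in its group, and the smallest share of the gland transcript Mucl2, 15.5%. SJQYD 3 had 1.01 CPM of Xist, against 162 to 270.2 CPM in the other 14 libraries. Counts of members called without these libraries are given beside the main ones.

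In model glands 5 of the 10 genes rose relative to control, and none fell. A gene is said to rise or fall where edgeR's quasi-likelihood test gave an adjusted p under 0.05, Benjamini-Hochberg over all tested genes. Across all tested genes 2.57% rose, 466 of 18136, and 2.5% fell, 454 of 18136. The fold change was positive for all 10, with a median of 1.04 on the log2 scale, against 0.03 over all tested genes. An unadjusted p under 0.05 with a higher level was found for 9 members and for 11.6% of all genes. Model and control libraries did not overlap for 7 members, and 3.05% of all genes were higher without overlap. The 5 that rose were all 3 immunity-related GTPases, Gbp7 and Irf1. Bulk RNA cannot tell more cells of a type from more RNA per cell.

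**Figure D1:**
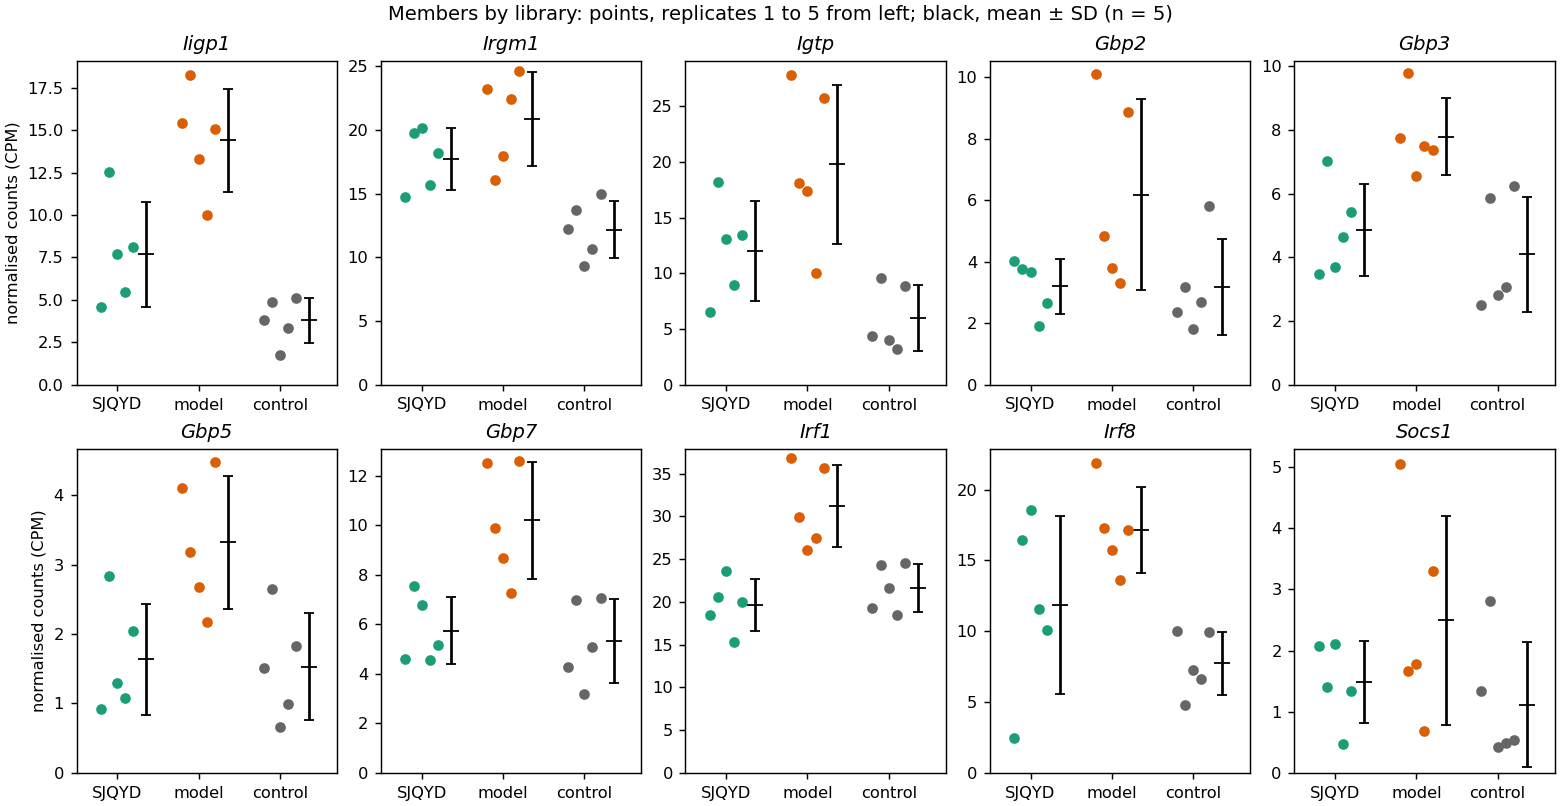
Level of each gene in CPM in every library of the SJQYD, model and control groups, 1 panel a gene, with points for replicates 1 to 5 from the left and black bars for the mean ± SD (n = 5). Model libraries are higher than all control libraries for Iigp1, Irgm1, Igtp, Gbp3, Gbp7, Irf1 and Irf8, and only for Irf1 do all SJQYD libraries lie below all model libraries.

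Iigp1, a GTPase that coats and disrupts the vacuoles of intracellular parasites, showed the largest rise. It lies on chromosome 18. Its level was 15.4, 18.2, 13.3, 10.01 and 15.1 CPM in model libraries, against 3.83, 4.90, 1.77, 3.32 and 5.12 CPM in control libraries. All model libraries were well above the highest control library. The log2 fold change was 1.92 ± 0.29 (SE; 95% interval 1.3 to 2.54; adjusted p = 0.00221), a 3.79-fold rise.

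Irgm1 and Igtp belong to the subgroup that sits on the cell's own membranes and keeps the effector GTPases inactive there. Irgm1 (chromosome 11, 48861968 to 48871683, GRCm38) had 23.2, 16.05, 18.0, 22.5 and 24.7 CPM in model libraries, against 12.2, 13.7, 9.36, 10.7 and 15.0 CPM in control libraries. All model libraries were above all control libraries, with the nearest ones close together. Irgm1 rose by 0.78 ± 0.15 on the log2 scale (adjusted p = 0.00915). Igtp (chromosome 11, 58199556 to 58207591) had 27.8, 18.1, 17.4, 9.998 and 25.7 CPM in model libraries, against 4.37, 9.56, 4.02, 3.19 and 8.82 CPM in control libraries. The groups did not overlap, though model 4 lay close to control 2. Igtp rose by 1.72 ± 0.37 (adjusted p = 0.0184), and the call was lost without control 1 (adjusted p = 0.0532). Igtp shares 162 exonic bases with its neighbour Irgm2 on the same strand, so reads there can be split between them.

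The guanylate-binding proteins are dynamin-like GTPases that gather on pathogen vacuoles and bacteria and help to trigger inflammasomes. The 4 members lie in 1 cluster on chromosome 3, between 142493978 and 142638008. Only Gbp7 (142530342 to 142550149) passed the test, with 12.5, 9.88, 8.70, 7.26 and 12.6 CPM in model libraries, against 4.28, 6.97, 3.20, 5.11 and 7.08 CPM in control libraries. Every model library was above every control library, though model 4 exceeded control 5 only slightly. The log2 fold change was 0.93 ± 0.23 (adjusted p = 0.0274). Its 637 exonic bases shared with the pseudogene Gm43802 on the same strand leave some of its reads uncertain.

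Gbp2, Gbp3 and Gbp5 did not pass, with log2 differences of 0.92 to 1.11. Gbp3 (142560026 to 142573209) had 7.73, 9.78, 6.57, 7.50 and 7.36 CPM in model libraries, against 2.49, 5.87, 2.81, 3.08 and 6.25 CPM in control libraries. Its groups did not overlap, and the log2 difference was 0.92 ± 0.26 (adjusted p = 0.0522). Gbp2 (142620602 to 142638008) had 10.1, 4.83, 3.79, 3.31 and 8.86 CPM in model libraries, against 2.38, 3.19, 1.80, 2.68 and 5.80 CPM in control libraries. Model 1 and model 5 were well above the other 3 model libraries, which overlapped with control, and the difference was 0.96 ± 0.35 (adjusted p = 0.122). Gbp5 (142493978 to 142522344), which in mice promotes assembly of the NLRP3 inflammasome, had 4.10, 3.18, 2.68, 2.17 and 4.47 CPM in model libraries, against 1.51, 2.65, 0.665, 0.995 and 1.83 CPM in control libraries. The highest control library lay among the model libraries, and the difference was 1.11 ± 0.37 (adjusted p = 0.0924).

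Irf1 (chromosome 11, 53770014 to 53777323), the early transcription factor of the pathway, had 36.8, 30.0, 26.1, 27.5 and 35.6 CPM in model libraries, against 19.3, 24.3, 21.6, 18.5 and 24.6 CPM in control libraries. The groups did not overlap. The log2 fold change was 0.53 ± 0.13 (adjusted p = 0.0315), the smallest among the members. Of its exonic bases, 135 overlap Gm17334 on the opposite strand, and the sources used here do not say whether counting used the strand. Irf8 (chromosome 8, 120736358 to 120756694), a factor of myeloid and B cells as well as an interferon-induced gene, had 21.9, 17.3, 15.8, 13.6 and 17.1 CPM in model libraries, against 10.02, 4.83, 7.29, 6.65 and 9.93 CPM in control libraries. The groups did not overlap, but the difference of 1.15 ± 0.39 did not pass (adjusted p = 0.1). SJQYD 1, with 2.44 CPM, enters the shared estimate of the spread, and without it the adjusted p for Irf8 was 0.00762.

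Socs1 (chromosome 16, 10782240 to 10785536), which blocks Janus kinases, had 5.05, 1.66, 1.78, 0.678 and 3.30 CPM in model libraries, against 1.34, 2.81, 0.419, 0.488 and 0.535 CPM in control libraries. The groups overlapped widely. The log2 difference of 1.15 ± 0.60 had an interval of -0.12 to 2.42 (adjusted p = 0.276), so this depth and spread do not settle its direction.

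The calls for Iigp1 and Irgm1 held in every alternative tried, a stricter threshold of 0.01 included. The calls for Gbp7 and Irf1 were lost when any of control 1, control 3, control 4, model 1, model 2 or model 5 was left out, and in a fit of only the 2 groups (adjusted p = 0.0528 for Gbp7 and 0.0522 for Irf1). Without the 3 libraries rich in parotid transcripts, 8 members rose, adding Gbp3, Gbp5 and Irf8. Without control 2 alone 7 rose, adding Gbp3 and Gbp5, without SJQYD 1 alone 6 rose, adding Irf8, and without model 3 or SJQYD 3 it was 5. The split of all calls depends on scaling, with 466 higher and 454 lower under TMM, and 1407 higher and 40 lower on log2(FPKM + 1), where the median difference of all genes was 0.28.

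**Figure D2:**
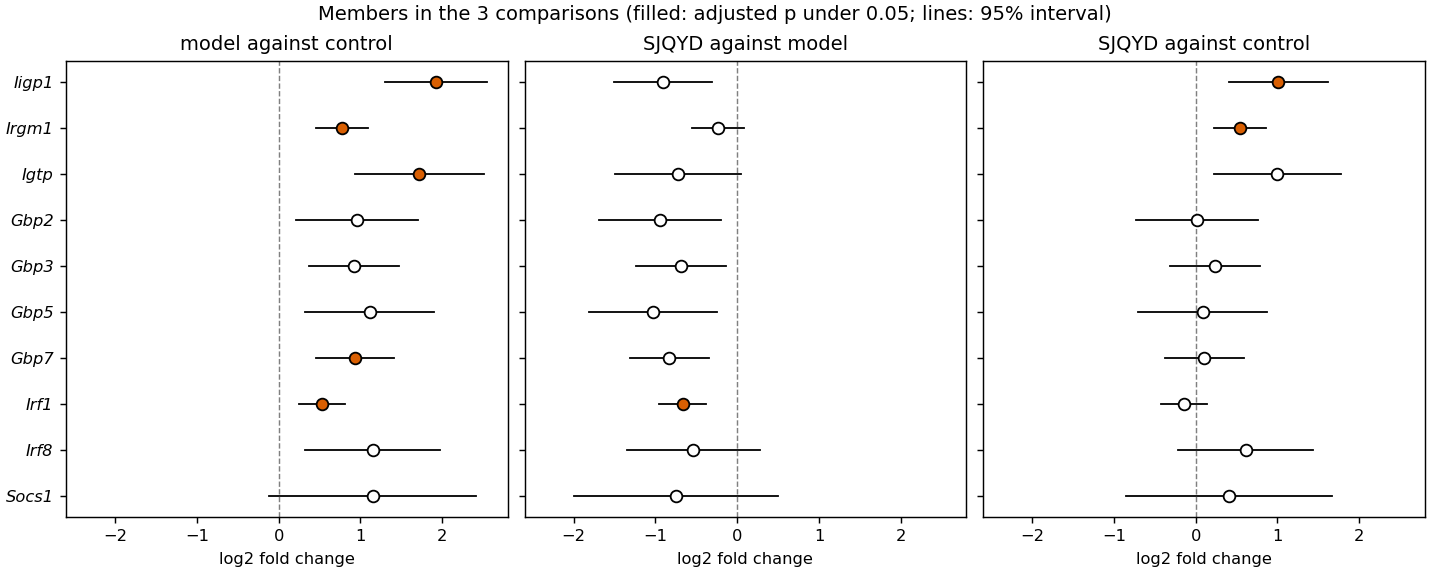
Log2 fold change of each gene, with its 95% interval, in the 3 comparisons, model against control at the left, SJQYD against control at the right. Filled points passed the adjusted p threshold of 0.05: 5 genes in the first comparison, Irf1 in the second, and Iigp1 and Irgm1 in the third.

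In SJQYD glands all 10 genes had a negative fold change relative to model, but only Irf1 fell. Across all tested genes 0.838% fell, 152 of 18136, and 1.91% rose. The median over the members was -0.73 on the log2 scale, against -0.03 over all genes. An unadjusted p under 0.05 with a lower level was found for 6 members, against 8.1% of all genes. The model libraries are shared with the comparison above, so the 2 sets of values are not independent.

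Irf1 had 18.5, 20.6, 23.6, 15.3 and 20.1 CPM in SJQYD libraries, against 36.8, 30.0, 26.1, 27.5 and 35.6 CPM in model libraries. Every SJQYD library was below every model library, while the SJQYD and control ranges overlapped. Over all genes 2.29% were lower without overlap. The log2 fold change was -0.67 ± 0.13 (95% interval -0.95 to -0.39; adjusted p = 0.0112). The call held without any 1 library, with adjusted p from 0.011 to 0.0358, and without the 3 parotid-rich libraries (adjusted p = 0.0434). It was lost on the authors' FPKM scale, where log2(FPKM + 1) gave -0.51 with an adjusted p of 0.402.

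Among the immunity-related GTPases, Iigp1 had 4.61, 12.5, 7.71, 5.44 and 8.11 CPM in SJQYD libraries, against 10.01 to 18.2 CPM in model libraries. Only SJQYD 2 overlapped with the model libraries. The log2 difference was -0.91 ± 0.28 (interval -1.51 to -0.31; adjusted p = 0.103). Igtp had 6.51, 18.2, 13.1, 8.95 and 13.4 CPM in SJQYD libraries, against 9.998 to 27.8 CPM in model libraries. Its difference was -0.72 ± 0.36 (adjusted p = 0.351). Irgm1 had 14.7, 19.8, 20.2, 15.7 and 18.2 CPM in SJQYD libraries, against 16.05 to 24.7 CPM in model libraries. Its difference was the smallest of the set, -0.24 ± 0.15, with an interval of -0.55 to 0.08.

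All 4 guanylate-binding members had an unadjusted p under 0.05 in SJQYD against model, and none passed after adjustment. Gbp7 came nearest, with 4.62, 7.57, 6.80, 4.57 and 5.17 CPM in SJQYD libraries, against 7.26 to 12.6 CPM in model libraries. Only SJQYD 2 overlapped with the model range, and the difference was -0.83 ± 0.23 (adjusted p = 0.0615). Gbp5 had 0.920, 2.84, 1.29, 1.08 and 2.04 CPM in SJQYD libraries, against 2.17 to 4.47 CPM in model libraries, a difference of -1.03 ± 0.37 (adjusted p = 0.164). Gbp2 had 4.04, 3.75, 3.66, 1.91 and 2.67 CPM in SJQYD libraries, against 3.31 to 10.1 CPM in model libraries, a difference of -0.94 ± 0.35 (adjusted p = 0.181). Gbp3 had 3.49, 7.02, 3.69, 4.64 and 5.42 CPM in SJQYD libraries, against 6.57 to 9.78 CPM in model libraries, a difference of -0.68 ± 0.26 (adjusted p = 0.188). In each of these, 1 or more SJQYD libraries reached the model range.

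Irf8 had 2.44, 16.5, 18.6, 11.6 and 10.1 CPM in SJQYD libraries, against 13.6 to 21.9 CPM in model libraries. SJQYD 1 was far below the rest, and the difference of -0.54 ± 0.38 (adjusted p = 0.547) was -0.26 without it. Socs1 had 2.07, 1.41, 2.11, 0.472 and 1.35 CPM in SJQYD libraries, against 0.678 to 5.05 CPM in model libraries. Its difference of -0.75 ± 0.59 had an interval of -2.0 to 0.50. DESeq2 called 3 members lower in SJQYD, adding Iigp1 and Gbp7.

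Relative to control, Iigp1 and Irgm1 rose in SJQYD glands, while 5.22% of all tested genes rose and 5.9% fell. Strain, disease and treatment all differ between these groups. The median over the 10 members was 0.32 on the log2 scale, against 0.04 over all genes. Iigp1 averaged 7.67 ± 3.08 CPM in SJQYD glands and 3.79 ± 1.35 CPM in control glands (SD, n = 5 each). Its log2 fold change was 1.01 ± 0.29, adjusted p = 0.033 in edgeR. Irgm1 averaged 17.7 ± 2.43 CPM in SJQYD glands and 12.2 ± 2.26 CPM in control glands (SD, n = 5 each). Its log2 fold change was 0.54 ± 0.15, adjusted p = 0.0302 in edgeR. For both genes the lowest SJQYD library overlapped with the control range. No member was above all control libraries in every SJQYD library, against 5.07% of all genes.

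The 2 calls were both lost without any one of control 1, control 3, control 4, SJQYD 2, SJQYD 3 or SJQYD 5. Igtp differed by 1.0 ± 0.36 (adjusted p = 0.0917). The 4 guanylate-binding members lay near control, at 0.02 for Gbp2, 0.24 for Gbp3, 0.09 for Gbp5 and 0.11 for Gbp7 on the log2 scale. Their intervals reached from -0.73 to 0.87, so differences within that range were not detectable here. Irf1 differed by -0.14 ± 0.13 (interval -0.42 to 0.14), and on log2(FPKM + 1) its sign turned, to 0.33. Irf8 differed by 0.61 ± 0.38 and Socs1 by 0.40 ± 0.59. Without the 3 parotid-rich libraries 4 members rose, adding Igtp and Irf8. Without control 2 alone 3 rose, adding Igtp, and without SJQYD 1 alone 3 rose, adding Irf8. Over all genes 947 were called higher and 1070 lower under TMM, and 3538 higher and 88 lower on log2(FPKM + 1), where the median difference of all genes was 0.33.

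Levels can be compared between genes only per length, as the authors' FPKM values. Igtp had the highest mean in the SJQYD and model groups and Irf1 in the control group. In model libraries Igtp averaged 9.45 ± 4.14 FPKM and Irf1 7.45 ± 1.82 FPKM, which is within their spread, followed by Irgm1 at 3.38 ± 0.692 FPKM. Gbp2, Iigp1, Irf8 and Gbp3 lay between 2.26 and 2.36 FPKM and did not differ beyond their spread. Gbp7 averaged 1.73 FPKM, Socs1 0.846 FPKM and Gbp5 0.474 FPKM. In SJQYD libraries Igtp averaged 5.79 ± 2.02 FPKM and Irf1 5.04 ± 1.68 FPKM, and in control libraries Igtp averaged 2.10 ± 1.35 FPKM and Irf1 3.75 ± 1.05 FPKM. Gbp5 was lowest in all 3 groups, at 0.239 FPKM in SJQYD libraries and 0.162 FPKM in control libraries.

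**Figure D3:**
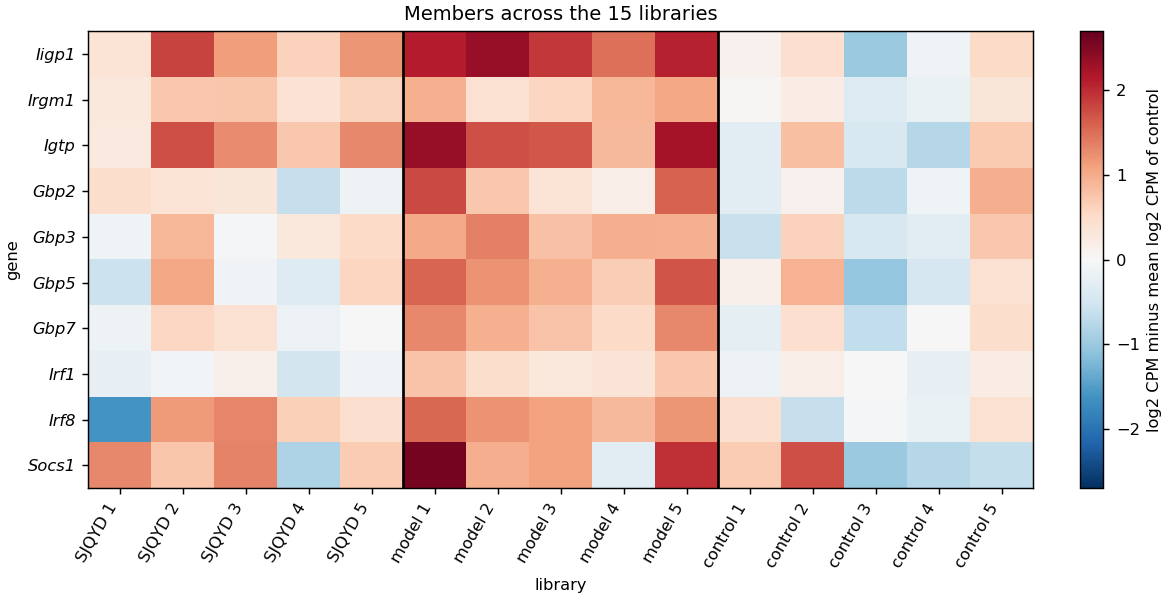
Log2 CPM of each gene in each library minus that gene's mean in control, on a colour scale from blue (lower) to red (higher). Columns are libraries, SJQYD first, then model, then control. Of the 5 model columns, model 1 is the highest for 5 genes and model 4 the lowest for 7, and Irf8 in SJQYD 1 is far below the rest of its group.

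Most members varied alike from library to library. After each group's mean was subtracted, Pearson's r over the 15 libraries for the 45 pairs ran from -0.0929 to 0.902, with a median of 0.591. These are descriptions over libraries that share depth, scaling and cell makeup. Iigp1 and Gbp5 were the most alike, at 0.902. Pairs with Irf8 were the least alike, with a median of 0.333 over 9 pairs. Without Irf8 and Socs1 the lowest of 28 pairs was 0.374. Among SJQYD libraries, SJQYD 1 was lowest for 6 members and SJQYD 2 highest for 5. Model 4 was lowest for 7 members of its group and model 1 highest for 5, while control 3 was lowest for 6 and control 5 highest for 6. This order depended on scaling. On FPKM SJQYD 1 was lowest for 1 member and SJQYD 4 for 9, model 1 was highest for 8, and control 2 was highest for 8 and control 5 for 2.

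The genes outside the set whose log2 CPM was most like the mean of the members over 15 libraries were Fyb (r = 0.966), Serpina3g (r = 0.965), Nfkbie (r = 0.960), Mndal (r = 0.957) and Tgtp2 (r = 0.956). Fyb encodes an adaptor of T cells, Nfkbie an inhibitor of NF-kappa-B, Mndal an interferon-inducible nuclear protein of mice, and Tgtp2 another immunity-related GTPase. After group means were subtracted, the genes most alike included Tgtp1 (r = 0.934), Serpina3g (r = 0.934), Tgtp2 (r = 0.932) and Gbp4 (r = 0.931). These correlations over 15 libraries share the same depth and composition, and they were picked as the highest among all genes.

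Of 61 other genes listed with the pathway, relatives of its GTPases included, 59 were tested, and Ido1 and Nos2 were not. In model glands 20 rose and 1 fell relative to control, where 2.57% of all tested genes rose and 2.5% fell. In SJQYD glands 1 fell relative to model, where 0.838% of all tested genes fell. Relative to control 6 rose and 1 fell in SJQYD glands, where 5.22% of all tested genes rose and 5.9% fell. The median log2 fold change of the 59 pathway genes was 0.96, -0.65 and 0.34 in these comparisons.

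The ligand and its receptor did not pass in any comparison. Ifng, the cytokine itself, had 8, 11, 15, 7 and 4 counts in SJQYD libraries, 33, 15, 23, 5 and 16 counts in model libraries, and 0, 0, 0, 4 and 10 counts in control libraries. It was seen in every NOD/LTJ library and not in 3 of the control libraries, where the floor of 3 counts allows up to 0.0840 CPM. Its fold change of 2.19 ± 0.97 in model against control (adjusted p = 0.196) rests on few counts. Ifngr1 averaged 9.61 ± 3.09 CPM in SJQYD, 13.2 ± 2.02 CPM in model and 11.3 ± 1.10 CPM in control libraries. Ifngr2, the second chain, differed by -0.36 ± 0.16 in SJQYD against model (adjusted p = 0.279). Jak1 and Jak2, the kinases at the receptor, did not pass either.

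Stat2, which serves type I interferon, rose in SJQYD against control by 0.68 ± 0.17 (adjusted p = 0.0153).

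Of 13 regulators, 3 rose and 1 fell in model against control, where 2.57% of all tested genes rose and 2.5% fell. Irf2, which competes with Irf1 for its sites, had 6.72, 6.79, 6.07, 7.02 and 6.29 CPM in SJQYD libraries, 9.65, 10.7, 8.91, 10.8 and 11.4 CPM in model libraries, and 7.58, 7.83, 7.56, 7.70 and 7.55 CPM in control libraries. Model was above both other groups without overlap. Irf2 rose by 0.43 ± 0.10 in model against control (adjusted p = 0.0243) and fell by 0.64 in SJQYD against model (adjusted p = 0.0023). Nlrc5, an activator of major histocompatibility class I genes, rose in model against control by 1.97 ± 0.44 (adjusted p = 0.0239), and in SJQYD against control by 2.17 ± 0.44 (adjusted p = 0.00821). Its SJQYD mean of 42.2 ± 15.4 CPM lay beside a model mean of 36.7 ± 4.70 CPM and a control mean of 9.32 ± 6.52 CPM. Ptpn6 rose in model against control by 0.70 ± 0.19 (adjusted p = 0.0467), and Ptpn11, another phosphatase, fell by 0.42 (adjusted p = 0.0261).

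Among 20 other GTPases of both families and their relatives, 5 rose in model against control: Tgtp2 by 1.94 ± 0.47, 9930111J21Rik2 by 1.71 ± 0.45, Gbp2b by 1.78 ± 0.46, Gbp8 by 1.84 ± 0.46, and Irgc1. The 20 include Atl1, Atl2 and Atl3, which are related to the guanylate-binding proteins but not among them, and none of these passed. The list goes by family, and whether interferon gamma induces each gene, Irgc1 and Irgq included, was not tested. Irgc1 had 0 counts in 4 of the 5 control libraries, and its fold has no fixed size. None of the 20 passed in SJQYD against model, where 18 had a negative fold change. Gbp9 had the smallest p there, with -1.38 ± 0.41 (adjusted p = 0.0918). Among 18 tested interferon gamma targets, 12 rose in model against control and none passed in SJQYD against model. The shares over all tested genes were 2.57% higher in model against control and 0.838% lower in SJQYD against model. Psmb8, an immunoproteasome subunit, averaged 43.1 ± 14.4 CPM in SJQYD, 67.2 ± 7.80 CPM in model and 20.9 ± 10.1 CPM in control libraries. It rose in model against control by 1.68 ± 0.30 (adjusted p = 0.0064) and in SJQYD against control by 1.04 ± 0.29 (adjusted p = 0.0328). Icam1, an adhesion molecule for leukocytes, Cd274, an inhibitory ligand for T cells, and Casp1, the inflammasome protease, rose in model against control by 1.09 ± 0.22, 1.54 ± 0.31 and 1.24 ± 0.25. The nearest to passing in SJQYD against model was Xaf1, an inducible regulator of apoptosis, at -1.02 ± 0.27 (adjusted p = 0.0505).

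**Figure D4:**
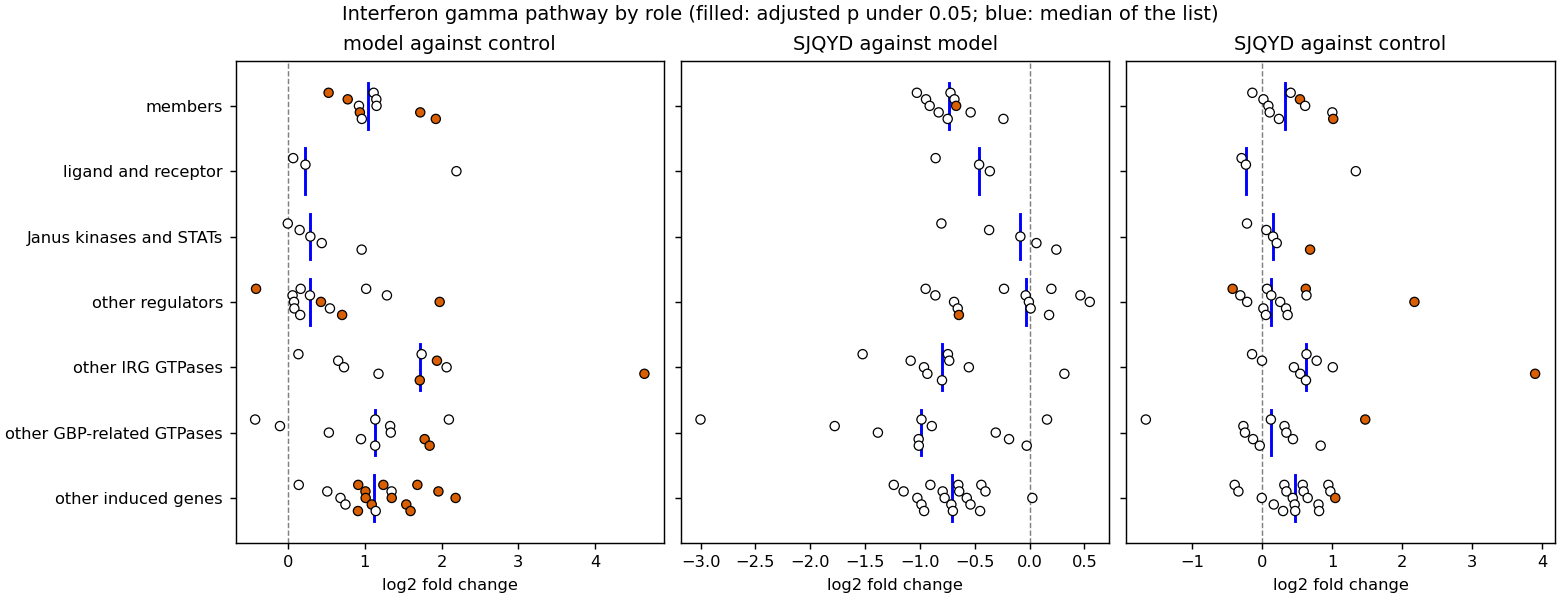
Log2 fold changes of the 10 genes (top row) and of the other genes listed with the pathway by role, 1 panel for each of the 3 comparisons, each with its own axis. Filled points passed an adjusted p of 0.05 and blue lines are medians. In SJQYD against model the filled points are Irf1 and, among regulators, Irf2.

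Summed natural killer and macrophage markers separated SJQYD from model libraries, while T cell, B cell, dendritic cell and plasma cell sums overlapped between these groups. The median log2 fold changes of the overlapping lists in SJQYD against model were -1.08, -1.05, -0.60 and -0.10, in that order. For the natural killer and macrophage lists they were -1.13 and -0.60, so the separated lists did not stand apart by size of change. No T cell or B cell marker passed in any comparison. Summed natural killer and cytotoxic markers were 3.53 to 7.11 CPM in SJQYD, 7.44 to 15.8 CPM in model and 4.09 to 10.04 CPM in control libraries, and summed macrophage markers were 74.3 to 96.2 CPM in SJQYD, 108 to 136 CPM in model and 68.0 to 126 CPM in control libraries. In both lists every SJQYD library was below every model library, as for Irf1, though the nearest natural killer sums were close together. Taken singly, 1 of the 8 natural killer and 4 of the 8 macrophage markers were lower without overlap, against 2.29% of all genes. None of the 8 natural killer markers and 1 of the 8 macrophage markers passed in SJQYD against model, and 1 of each list passed in model against control. The macrophage marker that passed in model against control was Fcgr1, which is also among the interferon gamma targets.

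Summed T cell markers were 7.34 to 91.7 CPM in SJQYD, 18.6 to 150.3 CPM in model and 4.22 to 69.3 CPM in control libraries. Their highest model libraries, model 1 and model 5, are also those with the highest lymph node markers, 191 and 122 CPM, and with the highest Irgm1, Igtp, Gbp2, Gbp5, Gbp7, Irf1 and Socs1. Iigp1 and Gbp3 were highest in model 2, where T cell markers summed to 25.8 CPM, and Irf8 was highest in model 1 and then model 2. SJQYD 3 was the highest in its group for T cell and lymph node markers and for Irf1, Irf8, Irgm1 and Socs1. In control 2, where B cell markers reached 65.0 CPM, Irf8 was the lowest of its group at 4.83 CPM. B cell markers were 10.4 to 47.1 CPM in SJQYD, 32.7 to 73.2 CPM in model and 0.0985 to 65.0 CPM in control libraries, with Cd79a, Cd79b, Pax5 and Blk at 0 in at least 1 control library. Dendritic cell markers were 7.24 to 10.6 CPM in SJQYD, 7.81 to 17.0 CPM in model and 4.75 to 8.77 CPM in control libraries. Plasma cell markers were 81.5 to 204 CPM in SJQYD, 63.1 to 233 CPM in model and 4.09 to 129.7 CPM in control libraries. Their median log2 fold change was 1.80 in model against control and -0.10 in SJQYD against model, where the members' median was -0.73.

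Summed markers of the endothelium, of acini and ducts and of skeletal muscle overlapped between each pair of groups. Endothelial markers summed to 19.9 to 29.8 CPM in SJQYD, 27.2 to 38.6 CPM in model and 24.3 to 32.7 CPM in control libraries. Their median log2 fold change was -0.57 in SJQYD against model, with 4 negative and 2 positive, and none passed. Markers of submandibular acini and ducts summed to 87242 to 516614 CPM in SJQYD, 222230.0 to 482303 CPM in model and 424493 to 906894 CPM in control libraries. Most of this sum is Mucl2, which took 15.5% to 53.8% of the counts of a library. The sum also scales with the TMM factor, 1.85 in SJQYD 1 and 0.594 in control 1. All 6 acinar and duct markers had a negative log2 fold change in model against control, with a median of -0.59, and 1 of them fell. Skeletal muscle markers summed to 21.02 to 38.2 CPM in SJQYD, 21.6 to 37.9 CPM in model and 11.2 to 22.3 CPM in control libraries, and 2 of the 5 rose in model against control and in SJQYD against control. The part of these cell types and tissues in the differences of the members was not tested.

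**Figure D5:**
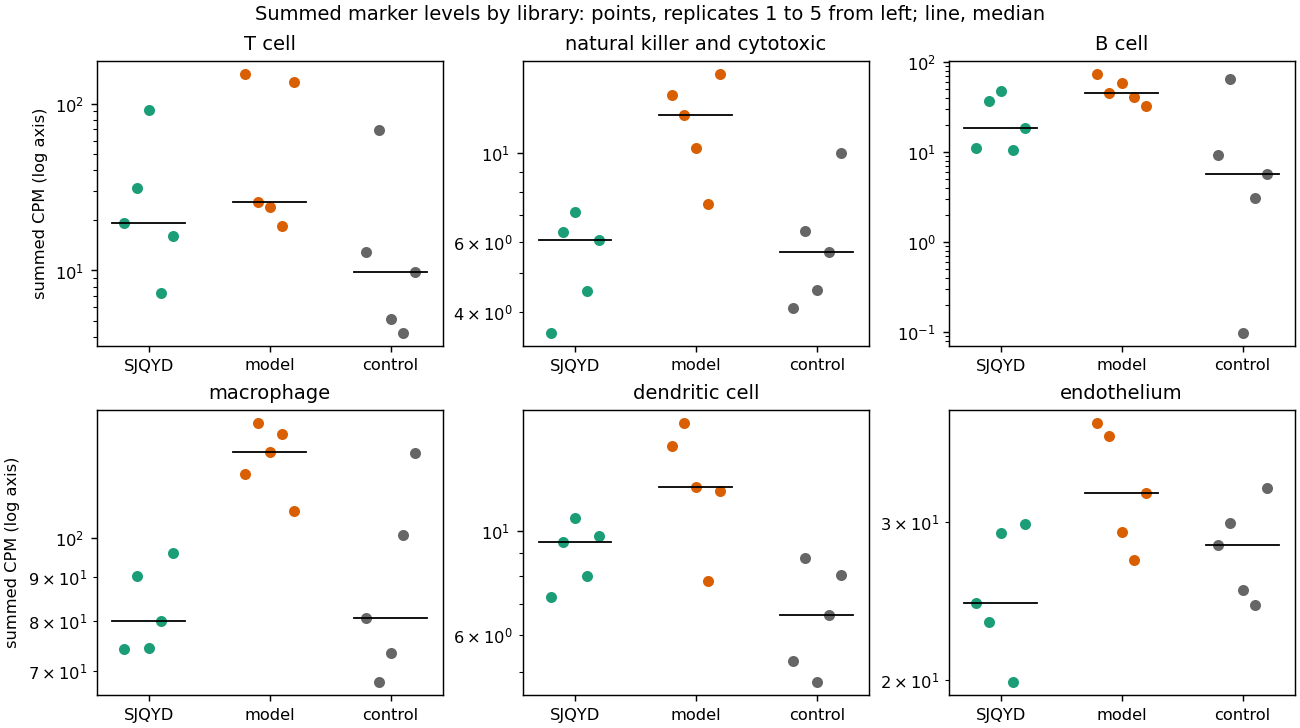
Summed CPM of 6 marker lists in each library of the SJQYD, model and control groups, on log axes, with points for replicates 1 to 5 from the left and a line at the median. Natural killer and macrophage sums of the SJQYD libraries lie below all model libraries.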

How the data were processed

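Gene counts, whole numbers for 55401 genes, were deposited by the authors, with FPKM values for the 32479 genes that had a count. Per the submitters' processing notes, edgeR, DESeq2, StringTie 1.3.4d, UMI-tools, HISAT2 2.0.4 and cutadapt 1.9 were used, with no role or order given. The notes name mm9, but coordinates equal GENCODE M21 (GRCm38) for 28337 of 32385 genes found, so GRCm38 is used. Libraries were strand-specific and carried molecular identifiers, per the labels' protocols; whether duplicates were removed or strand was used in counting is not given. Small counts pile up at 4 (14040 times, against 8483 at 3 and 4460 at 5), so counts may not be numbers of molecules, and floors cover counting error only.

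Counts were analysed in R 4.3.3 with edgeR 4.0.16, using the default expression filter by group, TMM factors and a robust quasi-likelihood fit with 1 mean per group over all 15 libraries. Authors' FPKM values were used for levels between genes and in alternatives over 12436 genes. Log2 fold changes carry a standard error and 95% intervals from the t distribution. The scripts were tested on simulated data. Alternatives used DESeq2 1.42.0, limma 3.58.1 on log2(FPKM + 1) and log2(FPKM + 0.1), other filters, a fit of 2 groups, an adjusted p of 0.01, a replicate block and leaving out libraries. Leaving out the 3 libraries richest in parotid transcripts was chosen after seeing the data. No pair of libraries within a group was a copy (lowest chi-square 74.0 per gene), and pairs across groups were not compared.

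The members, gene lists and marker lists were chosen with earlier results of these data known. The text names all members, up to 4 genes with the smallest p per pathway list and comparison, 6 fixed pathway genes, and the 5 genes most like the members' mean by each of 2 measures; markers are given as sums. Some items that this rule names are not reported here.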

Additional observations from a re-analysis of the deposited data

How the results depend on the processing

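Members that rose in model against control numbered 5, and 8 with DESeq2, 8 on log2(FPKM + 0.1), 2 at an adjusted p of 0.01, 8 without the 3 parotid-rich libraries and 2 to 7 when 1 library was left out. All genes called were 920, against 1779 with DESeq2, 466 in the fit of 2 groups, 1447 on log2(FPKM + 1), 1958 on log2(FPKM + 0.1), 555 on log2(FPKM + 1) without a filter, 186 at 0.01, 1507 without the 3 libraries, and 354 to 1799 with 1 library left out. For SJQYD against model, 1 member passed, against 3 with DESeq2, 2 in the fit of 2 groups, 0 on each of the 3 FPKM scales, 0 at 0.01 and 1 to 2 with 1 library left out. All genes called were 498, against 1058 with DESeq2, 68, 57 and 48 on log2(FPKM + 1), log2(FPKM + 0.1) and unfiltered FPKM, 160 at 0.01, 186 without the 3 libraries, and 333 to 527 with 1 left out. For SJQYD against control, 2 members passed, against 1 without a filter, 1 in the fit of 2 groups, 4 on log2(FPKM + 0.1), 0 at 0.01, 4 without the 3 libraries and 0 to 3 with 1 left out. All genes called were 2017, against 3626 and 4046 on log2(FPKM + 1) and log2(FPKM + 0.1), 664 at 0.01, and 1240 to 2626 with 1 left out. Same-numbered libraries did not deviate together (r from -0.226 to 0.16), and the main fit did not pair them. Such r values cannot exclude a small effect shared by libraries of the same number. With a replicate block 2 members passed in SJQYD against model, and 7 and 3 in the comparisons with control. Signs turned only in SJQYD against control: Irf1 to 0.33, 0.39 and 0.33 on the 3 FPKM scales, Gbp2 to -0.091 without the 3 libraries, and, with 1 library left out, Gbp2 from -0.13 to 0.35, Gbp5 from -0.21 to 0.38 and Gbp7 from -0.032 to 0.23. The cause of these shifts was not tested. Of 268 values per comparison over members and alternatives, 226, 257 and 227 kept direction and side of the threshold. Gbp5 fell under the minimum of 0.5 FPKM and has no value there. The depth of 17 to 53 counts in some control libraries limits Socs1 and Gbp5.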
